A study of Homo sapiens with 36 samples.

Results

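Base excision repair of oxidized bases was followed through 10 genes in HK-2, a human kidney cell line that was made from proximal tubule epithelium and immortalized. The genes were OGG1, MUTYH, NTHL1, NEIL2 and NEIL3, which encode DNA glycosylases, NUDT1, which cleans the nucleotide pool, and APEX1, POLB, XRCC1 and PARP1, which act after the damaged base is gone. They were found by the gene symbol that the array annotation gives, which matched 14 of 54675 probe sets. Where a gene had several, the one that was brightest on average across the arrays stood for it. A gene counted as measured if its log2 expression exceeded 4 on at least 3 of the 36 arrays, and 9 of the 10 did so, among 11092 genes tested in all. NEIL2 did not.

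One set of cells was exposed to CdCl, to Di or to vehicle only, for 12 h or 48 h, and a second set to Kbr at a high dose, to Kbr at a low dose or to vehicle only, for 24 h or 48 h. The labels do not spell out these 3 compound names, give no concentration and grade the dose only for Kbr. All 12 groups came from the same cell line, seeded in wells and treated near confluence, with 3 biological replicates each on single-colour arrays. The design set out to find expression signatures of toxicity, so each treatment was compared with the vehicle of its own set and time. The labels do not say whether replicates came from separate cultures started on different days, so p-values measure the spread between these samples only.

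Arrays of one group correlated at r = 0.982 to 0.995 and arrays of different groups at 0.891 to 0.993. Of 16 proximal tubule markers, 5 passed the filter (CDH6, SLC3A1, SLC4A4, PAX8 and CLDN2), while the defining transport genes LRP2, CUBN, AQP1 and SLC34A1 did not. All 5 general epithelial markers passed, and 0 of 4 endothelial and 0 of 5 leukocyte markers did. From the fibroblast list 3 of 6 passed (COL1A1, LUM and DCN), whereas COL1A2, COL3A1 and PDGFRB were below the filter. A sign of RNA quality, the beta-actin 3' signal less the 5' signal, averaged 1.40 to 1.84 log2 units in the groups given CdCl, Di or their vehicle and 0.87 to 1.06 in those of the Kbr set, so levels were not tested against each other across the sets.

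Reactive oxygen species oxidize bases in DNA and in the free nucleotide pool. A glycosylase cuts the damaged base from its sugar, an endonuclease opens the strand at the empty site, a polymerase fills the gap and a ligase seals it, with a scaffold protein holding the enzymes together and a sensor of strand breaks signalling the site. When the gap cannot be filled with a single nucleotide, a longer patch is made with the machinery of DNA replication. Proximal tubule cells are rich in mitochondria, a main source of reactive oxygen species, and take up many toxic compounds from the filtrate and the blood.

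Promoters are shown for the 4 genes on which the results turn, NEIL3, which rose with Kbr, and NTHL1, APEX1 and XRCC1, which fell. The sequences are the 250 bases before the annotated start, 5′ to 3′ on the gene's own strand, from RefSeq (GRCh38.p14). Capitals mark the letters TTTGAA, the core of the element CHR of cell cycle genes, and TGACNNNGC, the core of the antioxidant response element.
NEIL3 (chr4:177309624-177309873, plus strand): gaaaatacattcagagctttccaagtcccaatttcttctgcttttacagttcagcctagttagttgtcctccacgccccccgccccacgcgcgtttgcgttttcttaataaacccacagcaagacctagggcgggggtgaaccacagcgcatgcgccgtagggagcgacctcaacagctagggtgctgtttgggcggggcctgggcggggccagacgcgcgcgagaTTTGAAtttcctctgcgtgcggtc
NTHL1 (chr16:2047835-2048084, minus strand): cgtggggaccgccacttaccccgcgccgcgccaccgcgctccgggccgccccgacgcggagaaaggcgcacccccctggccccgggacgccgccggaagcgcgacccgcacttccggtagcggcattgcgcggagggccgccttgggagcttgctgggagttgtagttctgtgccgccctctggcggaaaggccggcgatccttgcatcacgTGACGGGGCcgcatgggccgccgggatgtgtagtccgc
APEX1 (chr14:20454976-20455225, plus strand): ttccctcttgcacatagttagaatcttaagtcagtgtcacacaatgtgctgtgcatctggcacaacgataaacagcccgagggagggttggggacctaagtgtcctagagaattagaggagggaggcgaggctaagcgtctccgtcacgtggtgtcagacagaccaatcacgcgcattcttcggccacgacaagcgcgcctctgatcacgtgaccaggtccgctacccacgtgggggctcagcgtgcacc
XRCC1 (chr19:43575528-43575777, minus strand): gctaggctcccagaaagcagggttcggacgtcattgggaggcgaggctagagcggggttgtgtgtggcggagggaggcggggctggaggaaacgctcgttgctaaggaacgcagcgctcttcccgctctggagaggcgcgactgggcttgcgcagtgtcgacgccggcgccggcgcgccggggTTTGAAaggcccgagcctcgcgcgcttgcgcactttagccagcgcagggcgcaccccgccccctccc

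The letters TTTGAA lay 24 bases before the start of NEIL3 and 67 bases before that of XRCC1, and TGACGGGGC lay 38 bases before that of NTHL1. The APEX1 window held neither. Both strands were searched, and no match overlapped another. Of 35116 promoter windows of this length in the table, 13.3% held TTTGAA and 10.9% held TGACNNNGC. The E2F letters TTTNNCGC, found in 5.92% of windows, were absent from the 11 windows of the 8 members looked up (NEIL2 and POLB were not used here). One of 3 MUTYH windows held both TTTGAA and TGACACCGC. These are descriptions of letters in a window, and NEIL3 and XRCC1, which share TTTGAA, moved in opposite directions with Kbr.

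Across the 8 comparisons with vehicle, APEX1 fell in 7, XRCC1 in 5, NTHL1 and PARP1 in 3 each, OGG1 in 2 and NUDT1 in 1, while MUTYH passed the test in 0 (1 at an unadjusted p under 0.05). NEIL3 rose in the 4 Kbr comparisons and fell in 1, and POLB rose in 2. These calls come from limma's moderated test, fitted over all 36 arrays and adjusted over the 11092 genes by Benjamini-Hochberg, at an adjusted p below 0.05. The map of differences gives the values.

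**Figure D1:**
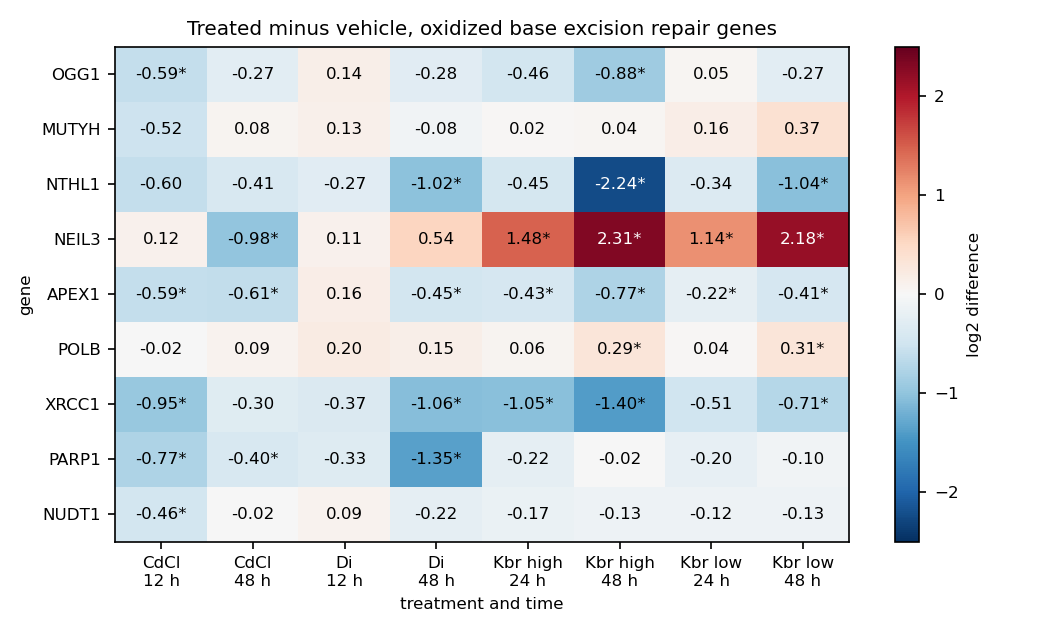
Log2 difference, treated minus vehicle, of the 9 measured genes (rows) in 8 comparisons (columns), 3 arrays against 3, coloured by size with an asterisk where adjusted p was below 0.05. NEIL3 is the row that is higher in all 4 Kbr columns, and APEX1 is lower with an asterisk in 7 of 8 columns. The CdCl 12 h column is as fitted, where the median of all genes is -0.16.

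The counts of members that passed are read against the share of all genes that did. CdCl lowered 5 of 9 at 12 h, where 30.5% of all genes fell, and 3 of 9 at 48 h, where 22.0% fell. Di changed 0 of 9 at 12 h by limma's test, where 6.27% of genes passed, and lowered 4 of 9 at 48 h, where 23.9% fell. At 12 h of Di 3 members (APEX1, POLB and PARP1) had an unadjusted p under 0.05. The share of all genes under that unadjusted limit is not given here, so the 3 cannot be read against it. High Kbr raised 1 and lowered 2 at 24 h, where 15.4% of all genes rose and 25.3% fell, and raised 2 and lowered 4 at 48 h, where 27.3% rose and 34.5% fell. Low Kbr raised 1 and lowered 1 at 24 h, where 6.93% rose and 8.28% fell, and raised 2 and lowered 3 at 48 h, where 23.8% rose and 23.2% fell. Centring arrays on their median left 3 of the 5 for CdCl at 12 h and the Di count at 12 h at 0, and changed the split of all genes at 12 h of Di (185 up and 510 down as fitted, 293 and 253 centred) and 24 h of high Kbr (1711 and 2806 as fitted, 2293 and 2207 centred). The median difference over the 9 genes was -0.59 for CdCl at 12 h, where that over all genes was -0.16, and -0.30 for CdCl at 48 h, with all genes at -0.01.

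For Di the median of the 9 was 0.11 at 12 h and -0.28 at 48 h, with all genes at -0.07 and -0.01. For Kbr it was -0.22 and -0.13 at the high dose and -0.12 and -0.13 at the low dose, at 24 h and 48 h, with all genes at -0.06 and -0.06, then -0.01 and 0.0015. Fewer cells of a kind and less RNA per cell cannot be told apart in these bulk values.

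NEIL3 (GRCh38.p14, chr4:177309874-177371268) encodes a glycosylase for oxidized pyrimidines and ring-opened purines that is made mainly in dividing cells. At 48 h its log2 expression was 10.05, 10.04 and 9.61 in high Kbr and 9.57, 9.90 and 9.85 in low Kbr, against 7.29, 7.63 and 7.86 in vehicle. Every treated array lay above every vehicle array. The difference was 2.31 ± 0.22 for high Kbr (SE of the fit, 3 arrays against 3, as for all differences below; 4.95-fold, adjusted p = 9.15e-10) and 2.18 ± 0.22 for low Kbr (4.52-fold, adjusted p = 1.39e-08). At 24 h its level was 9.88, 9.88 and 9.90 in high Kbr and 9.62, 9.44 and 9.59 in low Kbr, against 8.21, 8.49 and 8.52 in vehicle. Again the groups did not overlap, with differences of 1.48 ± 0.22 for high Kbr (adjusted p = 7.60e-06) and 1.14 ± 0.22 for low Kbr (adjusted p = 0.00107).

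In the other set NEIL3 did not rise in any comparison past the test. After 48 h of CdCl it was at 5.87, 4.84 and 5.74, against 5.92, 6.96 and 6.50 in vehicle. The highest CdCl array lay just below the lowest vehicle array. NEIL3 fell there by 0.98 ± 0.22 (1.97-fold, adjusted p = 0.000785), a call lost when only these 2 groups were fitted (adjusted p = 0.0613). After 48 h of Di it was at 6.83, 7.25 and 6.93, which overlapped vehicle, and the difference of 0.54 ± 0.22 missed the threshold (adjusted p = 0.0509). That value passed without vehicle replicate 2 (0.79, adjusted p = 0.00747), without Di replicate 1 (0.63, adjusted p = 0.0499) and with arrays centred on their median (0.61, adjusted p = 0.0203). It also passed with quantile normalization (0.65, adjusted p = 0.0119), a filter above 6 (adjusted p = 0.0466), averaged probe sets (adjusted p = 0.0496) and a variance trend (adjusted p = 0.0459). At 12 h the Di difference was 0.11 ± 0.22 (adjusted p = 0.830).

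Over the 12 groups, NEIL3 had the widest range of group means of the 10 genes, 4.42 log2 units. The order of means ran from high Kbr 48 h (9.90), high Kbr 24 h (9.88), low Kbr 48 h (9.77) and low Kbr 24 h (9.55) through CdCl 12 h (8.87), Di 12 h (8.87) and the 12 h vehicle (8.76) to the Kbr vehicles at 24 h (8.41) and 48 h (7.60), Di 48 h (7.00), the 48 h vehicle of its set (6.46) and CdCl 48 h (5.48). Neighbours within the 4 Kbr groups overlapped, as did those among the 12 h groups, and Di 48 h overlapped its vehicle. Every other neighbouring pair was separate, but levels in different sets share no control.

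NTHL1 (chr16:2039820-2047834) encodes the glycosylase that removes oxidized pyrimidines. With Kbr at 48 h it was at 4.23, 4.28 and 5.48 in the high dose and 5.40, 6.06 and 6.13 in the low dose, against 7.01, 7.08 and 6.63 in vehicle. Both doses lay below vehicle on every array, and 1 high-dose array stood apart from the other 2. NTHL1 fell by 2.24 ± 0.25 with high Kbr (4.73-fold, adjusted p = 1.11e-08) and by 1.04 ± 0.25 with low Kbr (2.06-fold, adjusted p = 0.00116). At 24 h the differences were -0.45 ± 0.25 for high (adjusted p = 0.159, and 0.0147 when only these groups were fitted) and -0.34 ± 0.25 for low Kbr (adjusted p = 0.408).

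After 48 h of Di, NTHL1 was at 5.09, 5.00 and 5.61, against 6.23, 6.23 and 6.32 in vehicle, again without overlap. It fell by 1.02 ± 0.25 (2.03-fold, adjusted p = 0.00138). With CdCl it did not pass, at -0.41 ± 0.25 after 48 h (adjusted p = 0.196, and 0.0483 when only these groups were fitted). At 12 h of CdCl it stood just short, at -0.60 ± 0.25 with no overlap (adjusted p = 0.0517), and it passed in 6 of 15 alternatives, with an adjusted p of 0.0300 to 0.327 over them. Those were a filter above 6, the replicate block, its set alone, and fits without vehicle replicate 2 (-0.75), CdCl replicate 1 (-0.72) or CdCl replicate 3 (-0.75). Its lowest group mean was 4.66 in high Kbr at 48 h and its highest 6.90 in the vehicle of that time, and neighbours in the order of group means overlapped except high Kbr 24 h and low Kbr 48 h.

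OGG1 (chr3:9749952-9791070) encodes the glycosylase that takes oxidized guanine out of DNA opposite cytosine. High Kbr at 48 h gave 6.23, 6.08 and 6.43, against 7.17, 6.86 and 7.37 in vehicle, with no overlap. OGG1 fell by 0.88 ± 0.20 (1.85-fold, adjusted p = 0.000434). The low dose gave 6.86, 6.32 and 7.41, which overlapped vehicle (difference -0.27 ± 0.20, adjusted p = 0.291), and without its replicate 3 the fall passed (-0.54, adjusted p = 0.0271). At 24 h the high dose gave 6.29, 6.55 and 6.43, against 6.75, 6.84 and 7.07, a difference of -0.46 ± 0.20 (adjusted p = 0.0684) that passed with the replicate number as a block (adjusted p = 0.0333) or these groups alone (adjusted p = 0.0304).

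OGG1 values depended on the probe set. The one used here averaged 6.77 over all arrays, and a second one 5.00. On the second, the high Kbr difference at 48 h was -0.12 (adjusted p = 0.682), and Di at 48 h was 0.60 higher than vehicle (adjusted p = 0.0439), where the first gave -0.28 ± 0.20 (adjusted p = 0.294). Levels on the second were 5.77, 5.36 and 5.54 in Di 48 h, against 5.00, 5.04 and 4.83 in vehicle. The direction of OGG1 with Di at 48 h therefore differed between the probe sets. It also differed, with no call on either, for Di at 12 h, CdCl at 48 h and low Kbr at 48 h. Means on the second were 4.96 in Di 12 h against 5.19 in vehicle, and 4.97 in CdCl 48 h against 4.96. For low Kbr at 48 h they were 5.36 against 5.19. The first gave differences of 0.14, -0.27 and -0.27 in these comparisons.

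MUTYH (chr1:45329242-45340440) encodes the glycosylase that removes adenine paired with oxidized guanine. Its group means spanned 0.83 log2 units, with 8.14 in CdCl 48 h as the highest and 7.31 in the 48 h Kbr vehicle as the lowest, and every pair of neighbours in that order overlapped. At 12 h of CdCl it was at 7.20, 7.48 and 7.31, against 7.86, 8.10 and 7.59 in vehicle, separate but short of the threshold (-0.52 ± 0.22, adjusted p = 0.0593). It passed there with the replicate block (adjusted p = 0.0143), its set alone (adjusted p = 0.0253), these groups alone (adjusted p = 0.0210) and without vehicle replicate 3 (-0.65, adjusted p = 0.0397). With low Kbr at 48 h its difference of 0.37 (adjusted p = 0.177) passed without low Kbr replicate 3 (0.58, adjusted p = 0.0448). NEIL2, a glycosylase for oxidized bases in open DNA structures, read 2.81 to 3.38 on all 36 arrays, below the filter, and a fit without the filter gave adjusted p of 0.579 to 0.999 in the 8 comparisons. These levels are near background.

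NUDT1 (chr7:2242226-2251145) encodes the enzyme that hydrolyses oxidized purine nucleotides before they enter DNA. It fell at 12 h of CdCl only, with 7.65, 7.89 and 7.66 against 8.28, 8.09 and 8.21 in vehicle. The groups were separate, and the call (adjusted p = 0.00874) was lost with arrays centred on their median (adjusted p = 0.118). In the other 7 comparisons its difference lay between -0.22 and 0.09. Its level also differed with time. At 48 h the vehicle of the CdCl and Di set had 6.98, 6.62 and 6.70, against 8.28, 8.09 and 8.21 at 12 h, a fall of 1.43 ± 0.14 (2.69-fold, adjusted p = 3.11e-09).

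**Figure D2:**
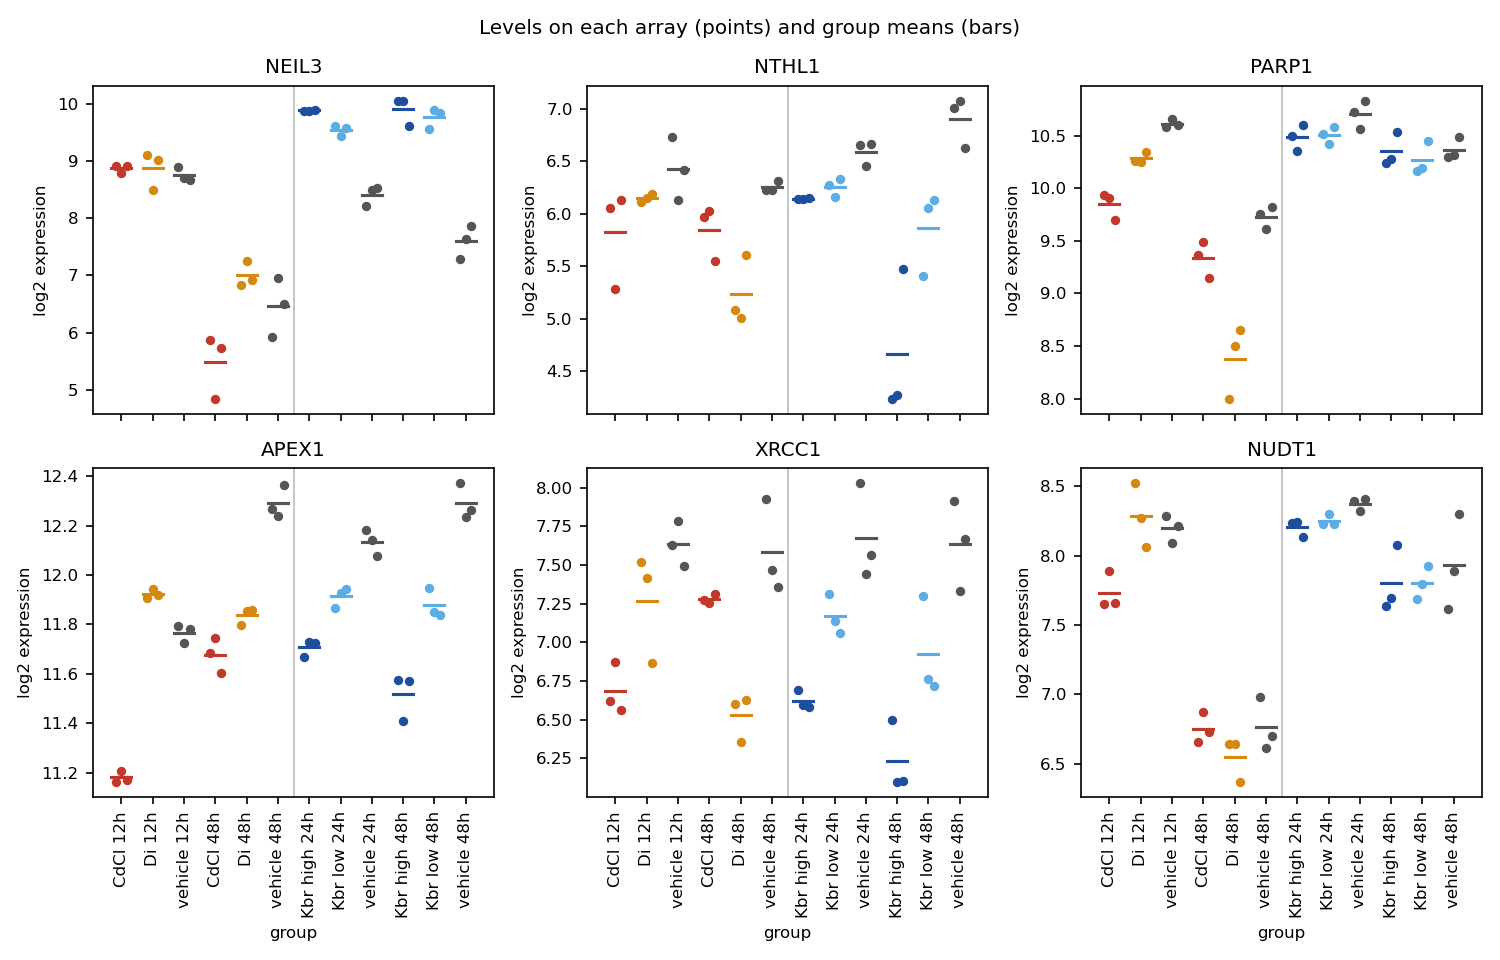
Log2 expression of 6 genes on each array (points) with group means (bars), the CdCl and Di set left of the grey line and the Kbr set right of it, each treatment left of the vehicle of its time. NEIL3 sits at 9.44 to 10.05 in all Kbr-treated arrays, above the 7.29 to 8.52 of their vehicles, and APEX1 is below its vehicle in every treated group except Di 12 h.

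APEX1 (chr14:20455226-20457767) encodes the main endonuclease that opens DNA at the empty site. It had the smallest spread among replicates of the measured genes (median SD 0.05). At 48 h it was at 11.57, 11.41 and 11.57 in high Kbr and 11.95, 11.85 and 11.84 in low Kbr, against 12.37, 12.24 and 12.26 in vehicle. Both doses were separate from vehicle, with a fall of 0.77 ± 0.06 for high (1.71-fold, adjusted p = 4.74e-11) and 0.41 ± 0.06 for low Kbr (1.33-fold, adjusted p = 7.43e-06). High Kbr at 24 h gave 11.67, 11.73 and 11.73, against 12.18, 12.14 and 12.08 (a fall of 0.43 ± 0.06, adjusted p = 7.14e-06).

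Low Kbr at 24 h lowered APEX1 by 0.22 ± 0.06 (adjusted p = 0.0191). That call was lost without vehicle replicate 1 (-0.20, adjusted p = 0.0982), vehicle replicate 2 (-0.22, adjusted p = 0.0549) or low Kbr replicate 1 (-0.20, adjusted p = 0.0706), with arrays centred on their median (adjusted p = 0.0680), and when only its set (adjusted p = 0.0860) or its 2 groups (adjusted p = 0.164) were fitted.

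CdCl and Di lowered APEX1 at 48 h, with 11.68, 11.75 and 11.60 in CdCl and 11.80, 11.85 and 11.86 in Di, against 12.27, 12.24 and 12.36 in vehicle. The falls were 0.61 ± 0.06 (adjusted p = 9.51e-09) and 0.45 ± 0.06 (adjusted p = 1.31e-06). At 12 h it was at 11.16, 11.21 and 11.17 in CdCl, its lowest group, and at 11.91, 11.94 and 11.92 in Di, against 11.79, 11.73 and 11.78 in vehicle. CdCl was separate below, and Di stood above vehicle on every array with a difference of 0.16 ± 0.06 that missed the threshold (adjusted p = 0.141).

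POLB, the polymerase that fills the single-nucleotide gap, was higher at 48 h of Kbr. It was at 9.18, 9.25 and 9.35 in high Kbr and 9.40, 9.18 and 9.26 in low Kbr, against 9.01, 8.79 and 9.11 in vehicle. The groups were separate by little, and POLB rose by 0.29 ± 0.09 (adjusted p = 0.00425) and 0.31 ± 0.09 (adjusted p = 0.00407). Fitted with their own groups alone, the calls were lost (adjusted p = 0.0894 and 0.104), and the high-dose call was lost without vehicle replicate 2 (0.20, adjusted p = 0.0540). In the other 6 comparisons the difference lay between -0.02 and 0.20.

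XRCC1 (chr19:43543311-43575527) encodes the scaffold that holds the polymerase and ligase at the break. At 48 h it was at 6.50, 6.10 and 6.11 in high Kbr and 7.30, 6.76 and 6.71 in low Kbr, against 7.92, 7.33 and 7.67 in vehicle. Both doses lay below vehicle, and XRCC1 fell by 1.40 ± 0.18 (2.65-fold, adjusted p = 1.88e-07) and 0.71 ± 0.18 (1.64-fold, adjusted p = 0.00227). High Kbr at 24 h gave 6.69, 6.60 and 6.58, against 8.03, 7.44 and 7.56 (a fall of 1.05 ± 0.18, adjusted p = 4.70e-05). The low dose at 24 h gave 7.31, 7.14 and 7.06, a difference of -0.51 ± 0.18 that missed the threshold (adjusted p = 0.0610). It passed with the replicate block (adjusted p = 0.00847), with centred arrays (adjusted p = 0.0495) and without vehicle replicate 2 (-0.62, adjusted p = 0.0479).

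Di lowered XRCC1 at 48 h to 6.60, 6.36 and 6.63, against 7.93, 7.47 and 7.36 in vehicle, with a fall of 1.06 ± 0.18 (adjusted p = 2.81e-05) and no overlap. Di at 12 h overlapped vehicle (-0.37 ± 0.18, adjusted p = 0.241). With CdCl XRCC1 was at 6.62, 6.87 and 6.56 at 12 h, against 7.63, 7.78 and 7.49 in vehicle, without overlap (adjusted p = 0.000143). At 48 h it was at 7.27, 7.25 and 7.32, where the difference was -0.30 ± 0.18 (adjusted p = 0.192).

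PARP1 (chr1:226360691-226408093) encodes the sensor of strand breaks that marks a site with chains of ADP-ribose. It moved in the CdCl and Di set. After 48 h of Di it was at 7.99, 8.50 and 8.65, against 9.76, 9.61 and 9.82 in vehicle. PARP1 fell by 1.35 ± 0.13 (2.55-fold, adjusted p = 9.57e-10), with all Di arrays below all vehicle arrays. After 48 h of CdCl it was at 9.36, 9.49 and 9.15, a fall of 0.40 ± 0.13 (adjusted p = 0.0123) that was lost without vehicle replicate 3 (-0.35, adjusted p = 0.0526) or CdCl replicate 3 (-0.31, adjusted p = 0.0845). At 12 h of Di PARP1 was at 10.26, 10.25 and 10.35, against 10.58, 10.66 and 10.60 in vehicle, without overlap. The difference of -0.33 ± 0.13 missed the threshold (adjusted p = 0.124) and passed with the replicate block (adjusted p = 0.0496). In the 4 Kbr comparisons the PARP1 difference was -0.22 to -0.02, and none passed.

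CdCl at 12 h is given relative to the median of all genes, which lay at -0.16 there and near 0 once arrays were centred. Relative to it, XRCC1 fell by 0.79, PARP1 by 0.61, OGG1 by 0.43, APEX1 by 0.42 and NUDT1 by 0.30. NTHL1 stood at -0.44, MUTYH at -0.36, POLB at 0.14 and NEIL3 at 0.28, none of which passed. PARP1 was at 9.93, 9.91 and 9.70, against 10.58, 10.66 and 10.60 in vehicle, and OGG1 at 6.65, 6.75 and 6.68, against 7.18, 7.43 and 7.24. The calls of OGG1 (adjusted p = 0.0892) and NUDT1 (adjusted p = 0.118) were lost after centring, and that of OGG1 also without vehicle replicate 2 (adjusted p = 0.0757) or CdCl replicate 1 (adjusted p = 0.0531). Across all genes 1484 rose and 3386 fell at 12 h of CdCl, against 2094 and 2013 after centring.

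The dose of Kbr was compared directly. At 48 h the high dose was below the low dose for NTHL1 by 1.20 ± 0.25 (adjusted p = 0.000759), for XRCC1 by 0.69 ± 0.18 (adjusted p = 0.00655), for OGG1 by 0.61 ± 0.20 (adjusted p = 0.0276) and for APEX1 by 0.36 ± 0.06 (adjusted p = 0.000142), where 17.3% of all genes were lower. Over all genes 716 were higher and 1922 lower as fitted, against 1492 and 1237 with centred arrays. The OGG1 call was lost with centred arrays (adjusted p = 0.0737), quantile normalization (adjusted p = 0.0958), no filter (adjusted p = 0.0534) or its set alone (adjusted p = 0.0589), and without high Kbr replicate 1 or 2 or low Kbr replicate 1 or 3 (adjusted p of 0.0614 to 0.225). For NTHL1 and OGG1 the arrays of both doses overlapped. Without low Kbr replicate 1 only NTHL1 and APEX1 of the 4 passed, and 0 did when these 2 groups were fitted alone. NEIL3 was 0.13 ± 0.22 higher at the high dose, with no call (adjusted p = 0.735). At 24 h 3 of the 9 had an unadjusted p under 0.05, a limit for which no share of all genes is given here. By the adjusted p 0 of the 9 passed, where 4.39% of all genes did (76 genes higher and 411 lower as fitted, 178 and 218 centred). With the replicate block APEX1 (-0.21 ± 0.06, adjusted p = 0.0306) and XRCC1 (-0.55 ± 0.18, adjusted p = 0.0113) did.

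CdCl and Di were also set against each other at each time, at doses that are not given. At 12 h CdCl was lower than Di in 6 of 9 genes, where 22.1% of all genes were lower (1505 higher and 2449 lower as fitted, 1828 and 1792 centred). The beta-actin 3' less 5' signal was 1.64 to 1.75 in CdCl and 1.22 to 1.50 in Di there, and 1.69 to 1.98 in their vehicle. Di thus did not overlap its own vehicle at 12 h in this sign of RNA quality. The part of that signal was not tested, here or in Di at 12 h against vehicle. Without CdCl replicate 3, 3 of 9 passed, with MUTYH (adjusted p = 0.0596), XRCC1 (adjusted p = 0.0623) and PARP1 (adjusted p = 0.0518) lost. APEX1 differed by -0.74 ± 0.06 (adjusted p = 4.33e-10), OGG1 by -0.74 ± 0.20 (adjusted p = 0.00551) and MUTYH by -0.65 ± 0.22 (adjusted p = 0.0236), which was also lost without CdCl replicate 1 (adjusted p = 0.0816) or Di replicate 2 (adjusted p = 0.138). XRCC1, at -0.58 ± 0.18 (adjusted p = 0.0143), was also lost without Di replicate 1 (adjusted p = 0.0871) or 2 (adjusted p = 0.0613) and in a fit of these groups alone (adjusted p = 0.0580). At 48 h 20.5% of all genes were higher and 17.1% lower. There CdCl was higher than Di for PARP1 by 0.95 ± 0.13 (adjusted p = 1.03e-06) and for XRCC1 by 0.75 ± 0.18 (adjusted p = 0.00183), and lower for NEIL3 by 1.52 ± 0.22 (adjusted p = 4.76e-06).

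Effects changed with time in some members, by the test of that change. The Di effect was more negative at 48 h than at 12 h for PARP1 (-1.02 ± 0.18, adjusted p = 7.01e-05), XRCC1 (-0.69 ± 0.26, adjusted p = 0.0463) and APEX1 (-0.61 ± 0.09, adjusted p = 7.16e-06), as were 13.9% of all genes. The beta-actin 3' less 5' signal differed without overlap between Di (1.22 to 1.50) and vehicle (1.69 to 1.98) at 12 h, and its part was not tested. The XRCC1 call was lost with no filter (adjusted p = 0.0827), with quantile normalization (adjusted p = 0.0502) and in a fit of only these groups (adjusted p = 0.0686), where NTHL1 passed (-0.75, adjusted p = 0.0321). It was also lost without vehicle 12 h replicate 1 or 3, vehicle 48 h replicate 1, Di 12 h replicate 1 or 2, or any 1 of the Di 48 h replicates (adjusted p of 0.0515 to 0.156). The high Kbr effect was more negative at 48 h than at 24 h for NTHL1 (-1.80 ± 0.35, adjusted p = 0.00106) and APEX1 (-0.35 ± 0.09, adjusted p = 0.0102), as were 8.10% of all genes. The APEX1 call was lost with its set alone (adjusted p = 0.0620) or these groups alone (adjusted p = 0.120). For NEIL3 the change was 0.83 ± 0.32 at the high dose (adjusted p = 0.0767), which passed with its set alone (adjusted p = 0.0317) and without 48 h vehicle replicate 3 (adjusted p = 0.0483) or high Kbr 48 h replicate 3 (adjusted p = 0.0385). At the low dose it was 1.03 ± 0.32 (adjusted p = 0.0590), which passed with the block (adjusted p = 0.0462), quantile normalization (adjusted p = 0.0435) or a variance trend (adjusted p = 0.0498), and without 24 h vehicle replicate 1 (adjusted p = 0.0460) or 48 h vehicle replicate 3 (adjusted p = 0.0354). As fitted 0 members passed at the low dose, where 4.35% of all genes did (282 higher and 200 lower, against 199 and 237 centred). There 3 members had an unadjusted p under 0.05, a limit for which no share of all genes is given here.

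The CdCl effect on NEIL3 was more negative at 48 h than at 12 h, by -1.09 ± 0.32 as fitted (adjusted p = 0.0130). The median of all genes for this change was 0.12, so relative to it NEIL3 stood at -1.22, and centred arrays gave an adjusted p of 0.00406. Of all genes 1824 were higher and 863 lower as fitted, against 1047 and 1256 after centring. That was the only member called, and 7.78% of all genes were called lower. Without vehicle 48 h replicate 2 (-0.84, adjusted p = 0.0535), or without CdCl 48 h replicate 2 (-0.77, adjusted p = 0.0563), no member passed. In a fit of only these groups NEIL3 did not pass (adjusted p = 0.0504), and XRCC1 (0.65, adjusted p = 0.0285) and NUDT1 (0.45, adjusted p = 0.0463) passed upward.

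The vehicle cells themselves shifted with time in culture. In the CdCl and Di set, 6 of 9 genes differed between 48 h and 12 h, where 45.7% of all genes did (2032 higher and 3032 lower as fitted, 2591 and 2476 centred). NEIL3 was at 5.92, 6.96 and 6.50 at 48 h, against 8.90, 8.70 and 8.67 at 12 h, a fall of 2.30 ± 0.22 (4.92-fold, adjusted p = 2.85e-09). PARP1 fell by 0.88 ± 0.13 (adjusted p = 2.01e-06), NUDT1 by 1.43 as given above and OGG1 by 0.63 ± 0.20 (adjusted p = 0.0123). APEX1 rose by 0.52 ± 0.06 (adjusted p = 1.63e-07) and POLB by 0.26 ± 0.09 (adjusted p = 0.0132). The OGG1 call was lost without 12 h replicate 2 (adjusted p = 0.0536) or 48 h replicate 1 (adjusted p = 0.0815), and that of POLB without 48 h replicate 3 (adjusted p = 0.0563).

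Other measures moved with time in the same vehicle arrays. Of 20 genes of dividing cells 19 fell, and their mean log2 level was 9.32 to 9.48 at 48 h and 10.97 to 10.99 at 12 h. All 3 measured fibroblast-list genes fell, and the log2 sum of the 3 was 11.33 to 11.46 at 48 h and 12.38 to 12.50 at 12 h. The beta-actin 3' less 5' signal was 1.37 to 1.58 at 48 h and 1.69 to 1.98 at 12 h, without overlap. Their part in the member differences was not tested.

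In the Kbr vehicles 2 of 9 differed between 48 h and 24 h, where 12.2% of all genes did (564 higher and 794 lower as fitted, 650 and 585 centred). NEIL3 fell by 0.81 ± 0.22 (adjusted p = 0.0174) and NUDT1 by 0.44 ± 0.14 (adjusted p = 0.0381), and with the block PARP1 did so too (-0.34, adjusted p = 0.0303). The NUDT1 call was lost with no filter (adjusted p = 0.0588), centred arrays (adjusted p = 0.0774), quantile normalization (adjusted p = 0.0642) or its set alone (adjusted p = 0.0939), and without any 1 of the 24 h replicates or 48 h replicate 1 or 2 (adjusted p of 0.0511 to 0.274). Of 20 genes of dividing cells 12 fell, with a mean log2 level of 10.58 to 10.86 at 48 h and 11.09 to 11.29 at 24 h. No member passed without 24 h vehicle replicate 3, without 48 h vehicle replicate 1, or in a fit of these 2 groups alone. NEIL3 with Kbr differed little between times, at 9.90 ± 0.25 at 48 h and 9.88 ± 0.01 at 24 h in the high dose (SD, n = 3 each), while its vehicle was at 7.60 ± 0.29 at 48 h and 8.41 ± 0.17 at 24 h.

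Treatment effects at 48 h were compared across the sets, each relative to its own vehicle. The CdCl effect was below the high Kbr effect for NEIL3 by 3.28 ± 0.32 (adjusted p = 2.35e-09) and above it for NTHL1 (1.83 ± 0.35, adjusted p = 9.41e-05) and XRCC1 (1.10 ± 0.26, adjusted p = 0.000868), where 22.3% of all genes were below and 27.9% above. OGG1 (0.61, adjusted p = 0.0771) and PARP1 (-0.38, adjusted p = 0.0772) missed the threshold and passed with the replicate block (adjusted p = 0.0402 and 0.0419). The Di effect was below that of high Kbr for NEIL3 by 1.76 ± 0.32 (adjusted p = 4.96e-05) and for PARP1 by 1.34 ± 0.18 (adjusted p = 8.49e-07), and above it for NTHL1 (1.22 ± 0.35, adjusted p = 0.00608) and APEX1 (0.32 ± 0.09, adjusted p = 0.00543), where 19.9% were below and 23.6% above. The APEX1 call was lost in a fit of only these groups (adjusted p = 0.0614). OGG1 (0.61, adjusted p = 0.0875) missed the threshold for Di against high Kbr. It passed with the replicate block (adjusted p = 0.0460) and averaged probe sets (adjusted p = 0.0154). It also passed without 48 h vehicle replicate 2 of either set (adjusted p = 0.0443 and 0.0467) or Di 48 h replicate 1 (adjusted p = 0.0470). The CdCl and Di contrasts share the high Kbr and Kbr vehicle arrays.

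The rest of the repair route was read from a list of 35 genes, of which 31 were measured. At 12 h of CdCl 1 rose and 18 fell, where 30.5% of all genes fell (1484 of 11092 rose). At 48 h 5 rose and 13 fell, where 22.0% of all genes fell (2292 rose). Di lowered 2 at 12 h, where 6.27% of all genes passed in either direction. It raised 5 and lowered 14 at 48 h, where 23.9% of all genes fell (2122 of 11092 rose). High Kbr raised 3 and lowered 9 at 24 h, where 15.4% of all genes rose and 25.3% fell. At 48 h it raised 11 and lowered 10, where 27.3% rose and 34.5% fell. Low Kbr raised 3 and lowered 2 at 24 h, where 6.93% rose and 8.28% fell. At 48 h it raised 11 and lowered 3, where 23.8% rose and 23.2% fell. After centring, the counts were 2 up and 14 down for CdCl at 12 h, 1 up and 0 down for Di at 12 h, and 6 up and 9 down for high Kbr at 24 h. The map of the route shows both groups of genes side by side.

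**Figure D3:**
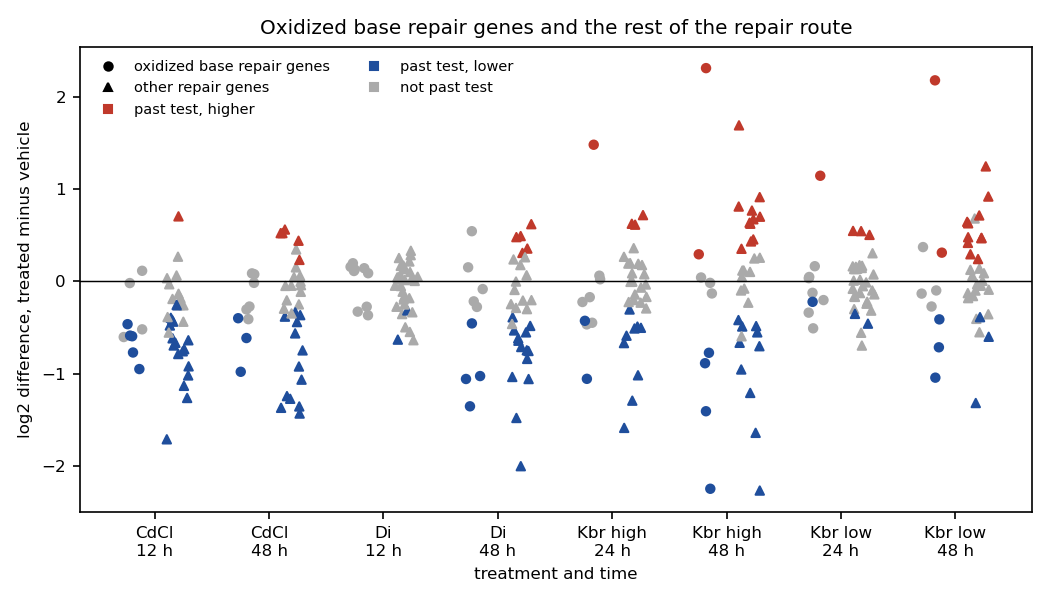
Log2 difference, treated minus vehicle, of the 9 measured genes for oxidized bases (circles) and 31 other genes of the repair route (triangles) in 8 comparisons, 3 arrays against 3, coloured by whether adjusted p was below 0.05. The highest circle in each Kbr column is NEIL3, from 1.14 to 2.31. Sideways scatter within a column has no meaning.

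Genes of long-patch synthesis share their enzymes with DNA replication. At 48 h 8 of 13 fell with CdCl and 9 of 13 fell with Di, where 22.0% and 23.9% of all genes fell. With Di 1 rose, as did 2122 of all 11092 genes. LIG1, a ligase, fell by 1.43 ± 0.20 with CdCl (adjusted p = 1.65e-06) and by 2.00 ± 0.20 with Di (adjusted p = 3.86e-09). It was at 4.57, 5.25 and 4.55 in CdCl and 3.86, 3.96 and 4.84 in Di, against 6.25, 6.43 and 5.98 in vehicle. The Di arrays lay near the filter level of 4, and 1 stood apart from the other 2, so the size of that fall is uncertain. POLE, a polymerase subunit, fell by 1.37 ± 0.16 with CdCl, to a mean of 4.60. POLD3 fell by 1.27 ± 0.12 with CdCl and 1.06 ± 0.12 with Di. FEN1, which trims the displaced flap, fell by 1.03 ± 0.09 with Di (adjusted p = 2.54e-10).

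With Kbr at 48 h members of that list moved in both directions. RFC3, a subunit of the clamp loader, rose by 1.69 ± 0.11 at the high dose and 1.24 ± 0.11 at the low dose, whereas POLD4, a small subunit of a replicative polymerase, fell by 2.26 ± 0.25 and 1.32 ± 0.25. At the high dose 2 of 13 rose and 4 fell, where 27.3% of all genes rose and 34.5% fell. After centring 4 of the 13 rose and 4 fell. POLD1, the catalytic subunit of the polymerase that holds POLD4, fell by 1.21 ± 0.25 with high Kbr.

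Among 5 other glycosylases measured, UNG, which removes uracil, fell by 1.35 ± 0.13 with CdCl and 1.48 ± 0.13 with Di at 48 h. MPG, which removes alkylated bases, fell by 1.64 ± 0.14 with high Kbr at 48 h and 1.29 ± 0.14 at 24 h. TDG, which removes thymine and uracil from mismatches, rose by 0.55 ± 0.09 with low Kbr at 24 h. Of 9 genes for gap filling, end cleaning and signalling, 6 rose and 1 fell with high Kbr at 48 h. There 27.3% of all genes rose and 34.5% fell. With low Kbr at 48 h 5 of the 9 rose and 0 fell, where 23.8% of all genes rose and 23.2% fell. APTX, which cleans blocked ends, rose by 0.92 ± 0.09 with low Kbr at 48 h (adjusted p = 7.42e-09).

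Genes of dividing cells were read beside NEIL3, and they did not move with it in every comparison. Of 20 such genes, 18 fell with CdCl at 48 h and 19 with Di at 48 h, and 0 rose with either (1 rose with CdCl after centring). With CdCl at 12 h 18 fell and 1 rose (16 and 1 after centring). NEIL3 fell in the first of these, and its difference was 0.54 with Di at 48 h (adjusted p = 0.0509) and 0.12 with CdCl at 12 h (adjusted p = 0.719). With high Kbr 11 rose and 4 fell at 48 h and 8 rose and 6 fell at 24 h (10 and 4 after centring). With low Kbr 9 rose and 2 fell at 48 h and 4 rose and 3 fell at 24 h (5 and 2 after centring). MKI67, a marker of cycling cells, differed by 0.68 ± 0.17 with high Kbr at 48 h and by -1.70 ± 0.17 with Di at 48 h, and CDK1, the mitotic kinase, by 0.97 and -1.06. RRM2, a subunit of the enzyme that makes deoxynucleotides, differed by 0.10 with high Kbr and by -3.22 with Di. In the 4 Kbr comparisons the differences of these 3 genes were 0.10 to 0.97, beside 1.14 to 2.31 for NEIL3. The 3 do not stand for the list of 20. At 48 h its differences ran from -0.80 to 2.88 with high Kbr and from -0.43 to 2.37 with low Kbr. The highest of the list thus lay above NEIL3 at both doses. At 24 h they ran from -0.90 to 0.94 and from -0.55 to 0.82, all below NEIL3. The gap between genes was not tested. The mean log2 level of the list was 11.10 to 11.18 in high Kbr, 10.99 to 11.20 in low Kbr and 10.58 to 10.86 in vehicle at 48 h, and 7.76 to 7.81 in Di and 8.10 to 8.32 in CdCl, against 9.32 to 9.48 in their vehicle. At 12 h it was 10.14 to 10.17 in CdCl, against 10.97 to 10.99 in vehicle. The part of cell division in the member results was not tested.

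**Figure D4:**
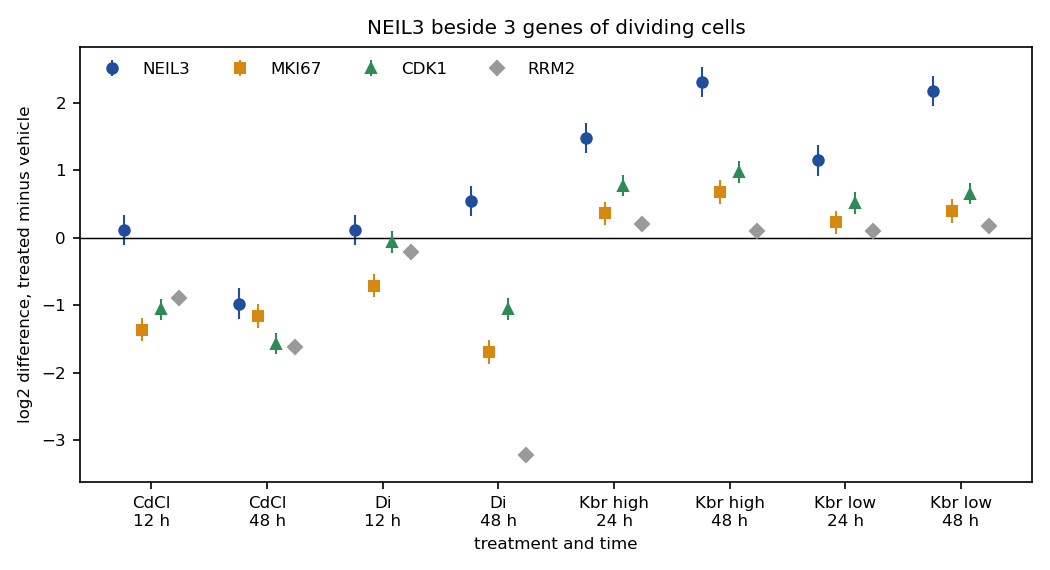
Log2 difference, treated minus vehicle, with its SE, of NEIL3 and of MKI67, CDK1 and RRM2 in 8 comparisons, 3 arrays against 3. NEIL3 lies above the other 3 genes in all columns, from -0.98 with CdCl at 48 h to 2.31 with high Kbr at 48 h. The 3 are from a list of 20 genes of dividing cells. The highest of that list, not drawn, lay above NEIL3 with CdCl at 12 h (0.75) and 48 h (0.53). It also did so with high Kbr (2.88) and low Kbr (2.37) at 48 h, and not in the other columns.

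Of 8 oxidative stress genes, all rose with CdCl at 12 h, Di at 48 h, high Kbr at both times and low Kbr at 48 h. At 48 h HMOX1, which degrades haem, was 6.23 above vehicle with CdCl, 5.54 with Di, 3.82 with high Kbr and 2.90 with low Kbr. NQO1, a quinone reductase, was 2.57 above with CdCl, 3.63 with Di, 2.76 with high Kbr and 2.80 with low Kbr. GCLM, a subunit of the enzyme that starts glutathione synthesis, was 2.92 above with CdCl, 3.67 with Di, 3.11 with high Kbr and 2.51 with low Kbr. Of the glycosylases, NEIL3 rose with Kbr at both times and fell with CdCl at 48 h, and OGG1, MUTYH and NTHL1 passed upward in no comparison with vehicle on the probe sets used, with the exception for the second OGG1 probe set given above.

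Markers of the cell types also moved with the treatments. Of the 5 proximal tubule markers measured, 4 fell with CdCl at 48 h (median of the 5 differences -2.25), Di at 48 h (-3.22), high Kbr at 24 h (-1.11) and 48 h (-2.56) and low Kbr at 48 h (-1.57), and 3 fell with low Kbr at 24 h (-0.65). In the other direction, 1 of the 5 rose with CdCl and Di at 48 h and with high and low Kbr at 24 h. Of 5 general epithelial markers, 3 fell with Di at 48 h (median -0.61) and high Kbr at 24 h (-0.71), 4 with high (-0.69) and low Kbr (-0.69) at 48 h, 2 with low Kbr at 24 h and 1 with CdCl at 48 h. With high and low Kbr at 48 h 1 of these 5 rose.

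Fibroblast-list genes moved too. The log2 sum of COL1A1, LUM and DCN was 10.02 to 10.40 in high Kbr and 10.19 to 10.75 in low Kbr at 48 h, against 12.09 to 12.21 in vehicle. At 24 h it was 11.24 to 11.70 in high Kbr and 11.55 to 12.03 in low Kbr, against 12.20 to 12.69 in vehicle. In Di at 48 h it was 10.46 to 10.57, against 11.33 to 11.46. All 3 genes passed downward with high Kbr at both times and with low Kbr at 48 h, and 2 did with Di at 48 h. The part of these 3 lists in the falls of NTHL1, XRCC1 and APEX1 and the rise of NEIL3 was not tested.

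For the 3 members called in at least 4 comparisons, the genes most alike over the 24 treated arrays were named by Pearson's r of the value minus the mean of the matched vehicle, with replicates of one group sharing a treatment. NEIL3 was most like PDCD2 (r = 0.96) and AHCTF1 (r = 0.95). APEX1 was most like RNF130 (r = 0.93) and RIBC2 (r = 0.93), and XRCC1 most like MIOX (r = 0.89) and ATP6V0E2 (r = 0.89). The median r over all genes was 0.01 for NEIL3, 0.02 for APEX1 and 0.07 for XRCC1.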

How the data were processed

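RNA of HK-2 cells was labelled as cRNA and read on single-colour Affymetrix arrays, as the labels' protocols state. The authors deposited log2 values per probe set after GCRMA, which corrects background and normalizes arrays together, per the submitters' processing notes. The GCRMA settings were not among the sources used here, and the log2 scale was read from the range of the values, 0.714 to 16.1. Values near the background floor compress differences of dim genes, and precision is limited by how many arrays there are.

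A probe set was kept if above 4 on at least 3 of the 36 arrays. Control probe sets and those with several genes or none were left out, and the brightest probe set stood for a gene, which left 11092 genes. The 12 group means were fitted over all 36 arrays in limma 3.58.1 (R 4.3.3; lmFit, eBayes), with Benjamini-Hochberg adjustment at 0.05, a procedure also tested on simulated data. Centring subtracted the median of the kept genes of each array.

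All 10 members are named. From the other genes of the repair route, up to 4 per comparison with vehicle with the largest difference among those past the test without overlap could be named, no more than 12 in all. The members and lists were chosen with earlier results of these data known.

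In the Kbr set, arrays with the same replicate number shared deviations from their group means in all 45 pairs (r = 0.218 to 0.701), so the labels' numbers were taken to pair those arrays. Blocked values of members are given where they change a call in a comparison that holds Kbr arrays. Where CdCl and Di were tested, r ran from -0.348 to 0.416 and exceeded 0.1 in 8 of 45 pairs, so the numbers were not taken to pair those arrays. The block fit nevertheless held the replicate numbers of both sets. Blocked values of CdCl and Di comparisons therefore rest on numbers that do not pair their arrays, and not all that change a call are given. Alternatives were other filters, centring, quantile normalization, averaging the probe sets of a gene, a variance trend, fits of fewer arrays, and each replicate left out. A fit with the other OGG1 probe set was added after seeing the data.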

Additional observations from a re-analysis of the deposited data

Results flagged for a closer look

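Some members had effects that differed between times or between compounds by a test of the difference itself (limma, adjusted over all genes). The CdCl effect on NEIL3 was more negative at 48 h than at 12 h, with a change of -1.09 ± 0.32 (adjusted p = 0.0130). The Di effect was more negative at 48 h than at 12 h for APEX1 (-0.61 ± 0.09, adjusted p = 7.16e-06), XRCC1 (-0.69 ± 0.26, adjusted p = 0.0463) and PARP1 (-1.02 ± 0.18, adjusted p = 7.01e-05). With high Kbr the effect was more negative at 48 h than at 24 h for NTHL1 (-1.80 ± 0.35, adjusted p = 0.00106) and APEX1 (-0.35 ± 0.09, adjusted p = 0.0102). The calls of NEIL3 with CdCl, XRCC1 with Di and APEX1 with high Kbr were lost in some other fits, as given above.

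At 48 h the CdCl effect minus that of high Kbr was 1.83 ± 0.35 for NTHL1 (adjusted p = 9.41e-05), -3.28 ± 0.32 for NEIL3 (adjusted p = 2.35e-09) and 1.10 ± 0.26 for XRCC1 (adjusted p = 0.000868). The Di effect minus that of high Kbr was 1.22 ± 0.35 for NTHL1 (adjusted p = 0.00608), -1.76 ± 0.32 for NEIL3 (adjusted p = 4.96e-05), 0.32 ± 0.09 for APEX1 (adjusted p = 0.00543) and -1.34 ± 0.18 for PARP1 (adjusted p = 8.49e-07). Each is a difference on the log2 scale. The APEX1 call was lost in a fit of only these groups (adjusted p = 0.0614).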

How the results depend on the processing

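Counts of members called, of 9, moved by over 1.5 times under some settings, and the cause was not tested. The number of all genes called moved with the settings too, and is given for some of them. Median centring gave 3 for CdCl at 12 h (5 as reported, with 4107 genes called in all against 4870) and 1 for the Kbr vehicles (2 as reported). Quantile normalization gave 1 for the Kbr vehicles and 1 for the change of the low Kbr effect (0 as reported). A variance trend gave 1 for that change and 1 for high against low Kbr at 24 h (0 as reported), where a fit with no filter also gave 1. There 523 genes in all were called with the trend and 432 of 19775 with no filter, against 487 as reported. A filter above 6 gave 5 for CdCl against Di at 48 h (3 as reported). The replicate block gave 1 for Di at 12 h (0 as reported, with 1662 genes in all, 695 without the block) and 2 for high against low Kbr at 24 h (1171 genes in all, 487 without the block). It gave 5 for CdCl against Di at 48 h, 2 for the change of the CdCl effect (1 up and 1 down, against 1 down as reported), 1 for the change of the low Kbr effect and 5 for the CdCl against the high Kbr effect (3 as reported). In the CdCl and Di set 3 of 18 arrays lay closest to an array of their own number, and the numbers do not pair those arrays.

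Fits of 1 set gave 1 for low Kbr at 24 h (2 as reported, with 933 genes called in all against 1687), 5 for CdCl against Di at 48 h, 2 for the change of the CdCl effect and 1 for the Kbr vehicles. Fits of only the groups compared gave 5 for high Kbr at 24 h (3 as reported), 1 for low Kbr at 24 h, 0 for high against low Kbr at 48 h (4 as reported), 2 for the change of the CdCl effect (2 up and 0 down, so the reported NEIL3 call was lost and NUDT1 and XRCC1 passed the other way), 1 for that of high Kbr (2 as reported) and 0 for the Kbr vehicles. Fewer of all genes were called in these fits of high Kbr at 24 h (3601, against 4517 as reported) and low Kbr at 24 h (267, against 1687). The same held for high against low Kbr at 48 h (647, against 2638). All-gene counts of the remaining settings are not given here, so member counts there cannot be read against them. Leaving out 1 array gave 3 to 6 for CdCl against Di at 12 h, 0 to 2 for the change of the CdCl effect, 3 to 5 for the CdCl against the high Kbr effect, 1 to 2 for low Kbr at 24 h, 0 to 1 for the change of the low Kbr effect, 0 to 2 for the Kbr vehicles and 2 to 4 for high against low Kbr at 48 h. For the single genes against vehicle, 622 of the values under other processing kept their side of the threshold. Of the rest 18 gained a call, 8 lost a call and 0 passed in the opposite direction. With 1 array left out 415 kept their side, 9 gained a call, 8 lost a call and 0 passed in the opposite direction. Values short of the threshold changed sign in some settings. For OGG1 with Di at 48 h the difference ran from -0.49 to 0.16 over the alternatives (-0.28 as fitted). These counts include genes that were not called as reported. The other OGG1 probe set passed in the opposite direction for 1 value, Di at 48 h, at 0.60. It also differed in direction, with no call, for Di at 12 h, CdCl at 48 h and low Kbr at 48 h. NEIL2, at 2.81 to 3.38 on all 36 arrays, lay below the filter, so a change in it was not detectable here.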
